A study of Mus musculus with 28 samples.

Results

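The checkpoint and costimulatory transcripts of macrophages were followed through 10 genes across 28 RNA-seq libraries of mouse bone marrow-derived macrophages. The genes were chosen by name, and all 10 were found among the 55487 gene IDs of each library: Cd274, Pdcd1lg2, Cd80, Cd86, Icosl, Vsir, Lgals9, Cd40, Tnfrsf9 and Havcr2. All macrophages were wild-type, and the labels give no strain, sex or age. Of the 7 groups of 4 libraries, 1 was cultured for 48 h in non-polarizing conditions (M0). The other 6 received IFN-γ or IL-10 at 50 ng/mL for 48 h in co-culture with apoptotic regulatory T (Treg) cells or apoptotic conventional CD4 T (Tconv) cells. Under each cytokine, macrophages were sorted into those that had taken up Treg cells (Treg-phagocytic), those that had taken up Tconv cells (Tconv-phagocytic) and those that had taken up neither (non-phagocytic). The T cells had been killed with ATP/NAD+ and stained with a fluorescent antibody against CD4. The series design describes sorting by uptake in non-polarizing conditions too, while the M0 labels name neither an uptake status nor T cells. Whether M0 macrophages met T cells is thus not known. In a comparison with M0 the cytokine cannot be told apart from co-culture and sorting. The question set by the series was how efferocytosis, the uptake of dying cells, of either T cell type changes macrophage transcripts.

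Macrophages present antigen to T cells and send second signals through surface ligands. CD80, CD86 and ICOS ligand engage CD28-family receptors, and PD-L1 (Cd274) and PD-L2 (Pdcd1lg2) bind the inhibitory receptor PD-1. VISTA (Vsir) is an inhibitory molecule that is abundant on myeloid cells, and galectin-9 (Lgals9) is a ligand of the receptor TIM-3 (Havcr2). CD40 and 4-1BB (Tnfrsf9) are receptors of the TNF receptor family that signal through TRAF adaptors to NF-κB. IFN-γ is a classical inducer of PD-L1, and IL-10 acts through STAT3.

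Depth and the summed marker transcripts of T cells, stromal cells and B cells differed between the cytokines, as did some dendritic cell markers. Values are TPM, which is a share of the library per transcript length, so levels can be compared between genes. Set against the deepest library, sequencing depth came to 11.2% to 24.2% with IFN-γ, 48.9% to 90.1% with IL-10 and 68.7% to 100% for M0, with 12, 12 and 4 libraries. On a transcript with an effective length of 2000 nt, 1 read was worth 0.131 to 0.286 TPM under IFN-γ and 0.0319 to 0.0651 TPM elsewhere. The 10 macrophage markers summed to 16655 to 21380 TPM in every library, with none at 0 throughout a group. The 18 T cell markers were also present, at 651 to 1187 TPM summed under IFN-γ, 187 to 351 TPM under IL-10 and 203 to 322 TPM in M0. The 8 stromal markers, of fibroblasts and smooth muscle, summed to 94.1 to 110.3 TPM in M0, 67 to 73.6 TPM in IL-10 non-phagocytic libraries and 1.56 to 6.4 TPM under IFN-γ. All 4 tested were called lower in IFN-γ non-phagocytic macrophages than in M0 and than in IL-10 non-phagocytic macrophages, and lower in the latter than in M0. Of all genes, 27.6%, 25.9% and 15% were called lower in these comparisons. Between phagocytic and non-phagocytic macrophages under IFN-γ, 0 of the 8 passed the filter. Against IFN-γ, the 4 were thus tested through the group where they were high, which largely set their direction. The 10 dendritic cell markers summed to 10.83 to 28.13 TPM under IFN-γ, 5.1 to 9.21 TPM under IL-10 and 6.56 to 8.74 TPM in M0. Much of this was 1 gene, Ccr7, with group means of 11.7 to 16.9, 2.19 to 4.4 and 2.055 TPM. Only 4 of the 10 were tested between IFN-γ and IL-10 non-phagocytic macrophages. Of these, 3 were called higher and 1 lower, against 28.6% and 25.9% of all genes. The 8 B cell markers summed to 6.93 to 17.63 TPM under IFN-γ, 1.36 to 6.7 TPM under IL-10 and 1.6 to 3.02 TPM in M0. The 8 neutrophil markers overlapped more, at 23.91 to 68.05, 17.38 to 36.28 and 45.5 to 51.11 TPM. The part of depth and of the transcripts of these cell types in the differences between cytokines and from M0 was not tested. In bulk RNA, fewer cells of a type and less RNA per cell cannot be told apart. Nothing in the labels says that the libraries of a group came from separate mice or cultures, so p-values measure the spread between these libraries, which may be technical. For all 8 Treg-phagocytic libraries the sample title gives a different antibody dye from the library name, and libraries are named here by title.

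Gene tests used limma on log2(scaled TPM + 1), with Benjamini-Hochberg adjustment over all genes tested in a comparison. A gene is called at an adjusted p under 0.05, and every log2 change below is on that scale. Between non-phagocytic macrophages, 8 of 10 genes were called between IFN-γ and IL-10, 7 higher and 1 lower, where 54.5% of all genes tested were called, 28.6% higher and 25.9% lower. Between IFN-γ and M0, 8 of 10 were called, 6 higher and 2 lower, against 56.8% of all genes, 29.3% higher and 27.6% lower. Between IL-10 and M0, 7 of the 8 genes above the filter of 1 TPM in 4 libraries were called, 4 higher and 3 lower, against 30.7% of all genes, 15.7% higher and 15% lower. The share called was thus high for all genes in these comparisons. Pdcd1lg2 and Tnfrsf9, called higher under IFN-γ against IL-10 and against M0, passed the filter through the IFN-γ libraries. All 4 of these reached 1 TPM, against 0 libraries of M0 or IL-10 for Pdcd1lg2 and 1 of each for Tnfrsf9. For these genes the filter left little room for a lower call. The median log2 change of the members against M0 was 0.93 for IFN-γ and 0.16 for IL-10, beside -0.01 and -0.00 over all genes tested. Between IFN-γ and IL-10, 6 of 9 were called in Treg-phagocytic macrophages, 5 higher and 1 lower, where 40.6% of all genes were called, 21.7% higher and 18.8% lower. In Tconv-phagocytic macrophages 5 of 10 were called, 4 higher and 1 lower, against 55.7% of all genes, 29.4% higher and 26.3% lower.

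Uptake was accompanied by fewer called changes. Treg- against Tconv-phagocytic macrophages under IFN-γ gave 1 call of 10, Cd274 lower, where 14.4% of all genes were called, 6.07% higher and 8.36% lower. Treg-phagocytic against non-phagocytic macrophages under IFN-γ gave 2 of 10, Cd274 lower and Tnfrsf9 higher, against 9.45% of all genes, 3.37% higher and 6.08% lower. Tconv-phagocytic against non-phagocytic macrophages under IFN-γ gave 0 of 10 by limma, where 0% of 12134 genes were called, while 1 of the 10 and 779 of all genes had an unadjusted p under 0.05. In that comparison a model of all 28 libraries called 116 genes, and a model with variance weights per group called 0. Under IL-10, Vsir, lower, was the call of 9 genes tested against Tconv-phagocytic macrophages, with 1.73% of all genes called, 0.691% higher and 1.04% lower. It was also the call of 9 against non-phagocytic macrophages, with 13% of all genes called, 8.09% higher and 4.95% lower. Tconv-phagocytic against non-phagocytic macrophages under IL-10 gave 0 of 8 by limma, with 1 of 8 at an unadjusted p under 0.05, while 7.27% of all genes were called, 5.21% higher and 2.06% lower. Comparisons within a cytokine share libraries, so their results are not independent of each other.

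Whether the 4 libraries of one group lay wholly above or below those of the other was also counted, on scaled TPM. This held for 8 of 10 members between IFN-γ and IL-10 non-phagocytic macrophages, against 51.9% of all genes, for 7 of 10 between IFN-γ and M0, against 53.8%, and for 6 of 8 between IL-10 and M0, against 32.4%. It held for 6 of 9 between the cytokines after Treg uptake, against 40.9%, and for 5 of 10 after Tconv uptake, against 52.8%. Under IFN-γ it held for 1 of 10 between Treg- and Tconv-phagocytic macrophages, against 20.6%, for 4 of 10 between Treg-phagocytic and non-phagocytic, against 16.9%, and for 0 of 10 between Tconv-phagocytic and non-phagocytic, against 3.77%. Under IL-10 the counts in the same order were 1 of 9, against 9.28%, 2 of 9, against 19.3%, and 1 of 8, against 14.9%. Some of these separations depended on scaling. In deposited TPM, Cd274 in Treg-phagocytic macrophages separated the other way, with IFN-γ below IL-10. Between the cytokines, deposited TPM overlapped for Cd80 in Treg-phagocytic, Havcr2 in Tconv-phagocytic, and Cd80 and Icosl in non-phagocytic macrophages. Cd86 between IFN-γ and M0 separated only in deposited TPM.

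**Figure D1:**
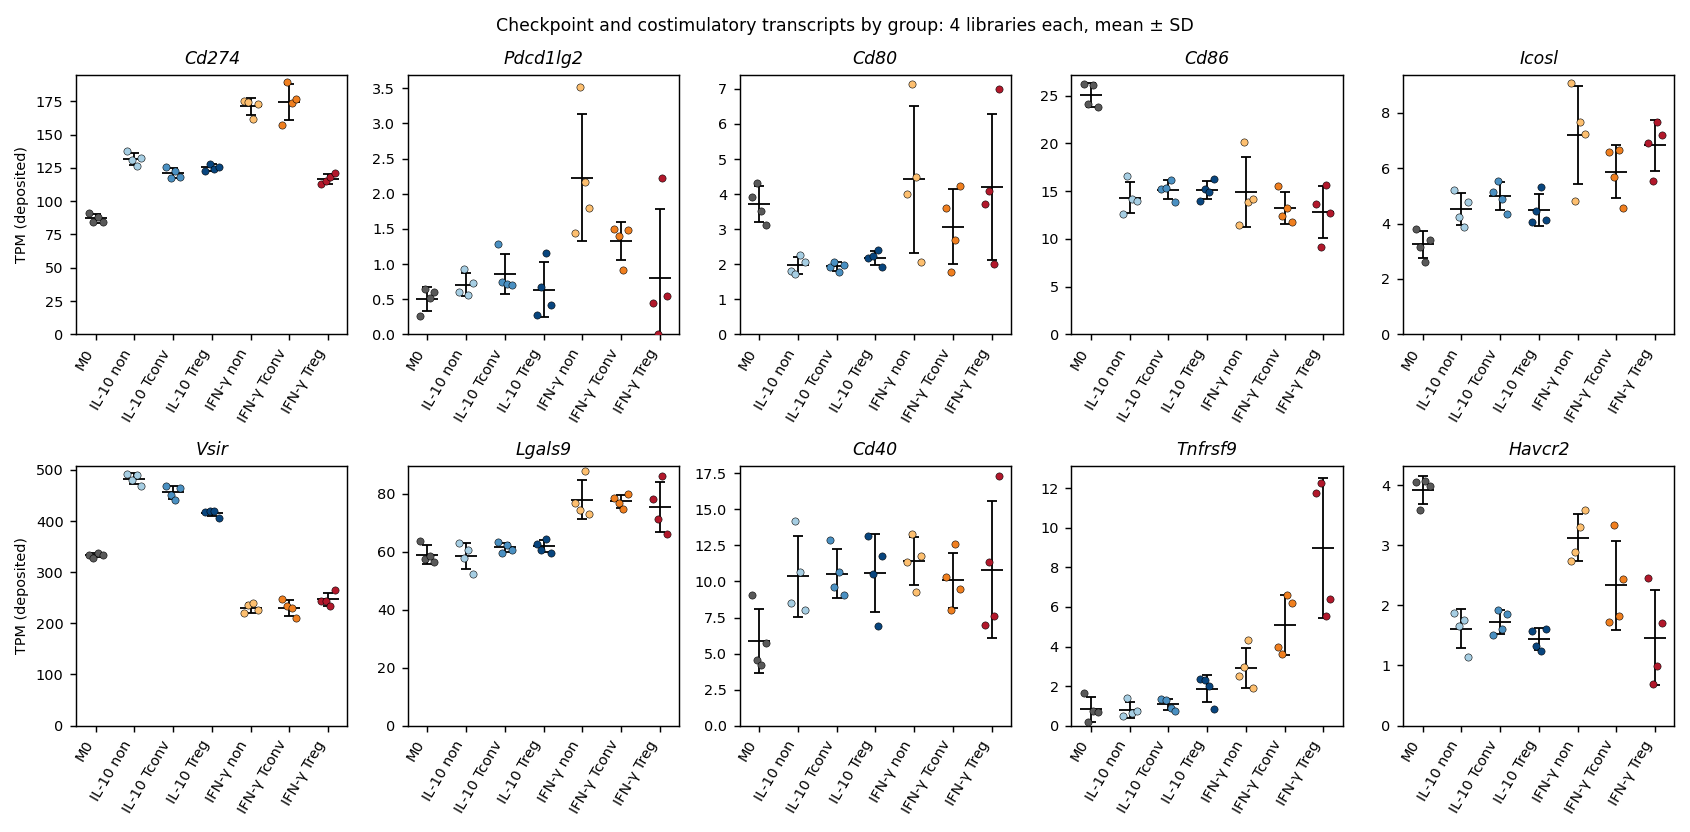
TPM of the 10 genes in each of 28 libraries (points), with the mean and SD of 4 libraries per group (bars); each panel starts at 0 and has its own scale, and non, Tconv and Treg are non-phagocytic, Tconv-phagocytic and Treg-phagocytic macrophages. The Cd274 points of IFN-γ Treg lie at 113 to 122 TPM, below all points of the other IFN-γ groups, and Vsir is highest under IL-10.

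Cd274 encodes PD-L1 and was, with Vsir and Lgals9, among the 3 most abundant of the 10 genes. The gene lies on the plus strand of chromosome 19 at chr19:29367455-29388095 in the mm10 build. Its promoter, and those of Lgals9 and Tnfrsf9, are shown because Lgals9 and Tnfrsf9 were higher in IFN-γ than in IL-10 macrophages and each holds a match to an interferon-related motif, whereas Cd274, also higher, holds none in this window. The windows of Pdcd1lg2, Cd80, Icosl and Havcr2, also called higher in non-phagocytic macrophages, hold no match either. Neither does the other Tnfrsf9 window, which is not printed. Each is the 250 bases before a RefSeq transcript start (GRCm38.p6, the mm10 assembly), read 5′ to 3′ along the gene. Capitals mark a match to the GAS pattern TTCNNNGAA or to an ISRE-type pattern of GAAA, any 2 bases and GAAA, searched on both strands.
Cd274, plus strand, chr19:29367188-29367437: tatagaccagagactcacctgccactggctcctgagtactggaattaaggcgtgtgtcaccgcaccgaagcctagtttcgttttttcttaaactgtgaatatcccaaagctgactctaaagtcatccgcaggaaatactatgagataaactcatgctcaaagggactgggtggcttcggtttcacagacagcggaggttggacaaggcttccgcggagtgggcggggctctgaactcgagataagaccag
Lgals9, minus strand, chr11:78984925-78985174: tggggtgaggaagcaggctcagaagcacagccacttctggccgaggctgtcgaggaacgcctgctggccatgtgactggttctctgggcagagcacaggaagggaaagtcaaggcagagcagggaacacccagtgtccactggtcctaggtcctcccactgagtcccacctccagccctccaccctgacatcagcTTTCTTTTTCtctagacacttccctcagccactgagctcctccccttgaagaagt
Tnfrsf9, plus strand, chr4:150927749-150927998: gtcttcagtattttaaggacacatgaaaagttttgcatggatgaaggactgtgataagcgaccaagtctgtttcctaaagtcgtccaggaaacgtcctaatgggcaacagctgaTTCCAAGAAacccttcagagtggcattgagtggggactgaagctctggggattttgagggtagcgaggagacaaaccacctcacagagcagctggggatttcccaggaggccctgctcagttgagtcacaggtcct
Of the 10 genes, 8 had a RefSeq promoter entry, with 9 windows in all. The GAS pattern occurred in 1 window, 136 bases before the second of 2 listed Tnfrsf9 starts, against 7.02% of 32851 windows of the same length. The ISRE-type pattern, which does not overlap a GAS match in any window printed, occurred in 1 window, 55 bases before the Lgals9 start, against 2.98%. A match describes letters and is not shown to be a site, and no match says only that these letters are not in this window.

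Cd274 TPM was higher under either cytokine than in M0, and lower in Treg-phagocytic than in the other macrophages under IFN-γ. In M0 it was 91.0, 84.1, 88.4 and 84.6 TPM. Under IFN-γ it was 176, 175, 162 and 173 TPM in non-phagocytic, 157, 189.9, 174 and 177 TPM in Tconv-phagocytic and 113, 115, 118 and 122 TPM in Treg-phagocytic macrophages. All 4 Treg-phagocytic libraries were below all 8 other IFN-γ libraries, and the non-phagocytic and Tconv-phagocytic ranges overlapped. Under IL-10 it was 138, 131, 126 and 132 TPM in non-phagocytic, 126, 117, 123 and 119 TPM in Tconv-phagocytic and 123, 128, 125 and 126 TPM in Treg-phagocytic macrophages. The IL-10 groups lay close together, above M0 and below the non-phagocytic and Tconv-phagocytic IFN-γ groups. In the order of mean deposited TPM (IFN-γ Tconv, IFN-γ non-phagocytic, IL-10 non-phagocytic, IL-10 Treg, IL-10 Tconv, IFN-γ Treg, M0), neighbours overlapped except at the steps after IFN-γ non-phagocytic and before M0. The place of IFN-γ Treg depends on scaling: on scaled TPM its libraries lay above those of IL-10 Treg.

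Under IFN-γ, the mean deposited TPM of Cd274 in Treg-phagocytic macrophages was 0.670 times that in Tconv-phagocytic macrophages. On scaled TPM the log2 change was -0.45 ± 0.0712 (SE; 4 against 4 libraries; limma, adjusted p = 0.0029), and without scaling it was -0.57. Against non-phagocytic macrophages the ratio of deposited TPM was 0.682. The log2 change on scaled TPM was -0.48 ± 0.0630 (SE; limma, adjusted p = 0.00167), and without scaling it was -0.55. Both calls held when any 1 library was left out, and neither change reached 1 on the log2 scale. Within each dye, where only 2 libraries met 2, the direction held but no call was made: by the titles, the means were 119.9 TPM in Treg- and 173 TPM in Tconv-phagocytic macrophages for BV421 (adjusted p = 0.224 by limma), and 114 and 175 TPM for Ax647 (adjusted p = 0.0761 by limma). By the library names, the adjusted p of limma was 0.198 for BV421 and 0.0812 for Ax647. Relative depth was 11.2% to 20.3% in the Treg-phagocytic and 20.8% to 24.2% in the Tconv-phagocytic libraries, and the 10 macrophage markers summed to 20897 to 21380 TPM in the former and 16655 to 18960 TPM in the latter, 5 of them called higher and 1 lower. Their part in the result was not tested.

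Under IL-10 the same comparisons of Cd274 gave log2 changes of 0.05 (95% interval -0.02 to 0.12) against Tconv-phagocytic and 0.01 (-0.06 to 0.08) against non-phagocytic macrophages, neither called by limma. The difference between the cytokines was itself tested. The Treg-against-Tconv change of Cd274 under IFN-γ minus that under IL-10 was -0.51 ± 0.0745 (log2, SE; limma, adjusted p = 0.000292). That test called 2 of these 10, 1 in each direction, and 14.1% of all genes, 5.91% higher and 8.19% lower. For Treg-phagocytic against non-phagocytic macrophages it was -0.49 ± 0.0649 (log2, SE; limma, adjusted p = 0.000128). That test again called 2 of 10, and 9.6% of all genes, 3.15% higher and 6.45% lower. The other gene called in both was Vsir. In the second test, Havcr2 was also called without IFN-γ Treg library Ax647-1 (-0.93, adjusted p = 0.0353) and Pdcd1lg2 without BV421-1 (-1.27, adjusted p = 0.0323). Tconv uptake gave 0 of 10 calls by limma in the corresponding test, with 2 of 10 at an unadjusted p under 0.05, beside 1.79% of all genes called, 0.245% higher and 1.54% lower.

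In deposited TPM, Cd274 in non-phagocytic macrophages was 1.97 times as high as in M0 under IFN-γ and 1.51 times as high under IL-10. On scaled TPM the log2 changes were 1.28 ± 0.0478 and 0.57 ± 0.0354 (SE; limma, adjusted p = 5.01e-08 and 1.41e-06). Without scaling they were 0.97 and 0.59. IFN-γ exceeded IL-10 by 0.70 ± 0.0461 (log2, SE; limma, adjusted p = 1.38e-06) in non-phagocytic and by 0.72 ± 0.0573 (SE; adjusted p = 5.35e-06) in Tconv-phagocytic macrophages. In non-phagocytic macrophages the IFN-γ excess was 0.38 without scaling. Treg-phagocytic macrophages gave no firm direction: the log2 change of Cd274 was 0.21 with scaling (limma, adjusted p = 0.00773) and -0.10 without it (adjusted p = 0.0917), and the 4 IFN-γ libraries lay at 113 to 122 deposited TPM, below the 122.53 to 128.27 TPM of IL-10. The median of all genes moved from -0.02 to -0.29 here when scaling was removed, from -0.01 to -0.30 in non-phagocytic and from -0.00 to -0.18 in Tconv-phagocytic macrophages.

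Pdcd1lg2 encodes PD-L2, the other PD-1 ligand, and lies next to Cd274 at chr19:29410919-29471161 (mm10, plus strand). It had a low level, at most 3.51 TPM in any library. It was 1.44, 3.51, 2.17 and 1.8 TPM in IFN-γ non-phagocytic macrophages and 0.26 to 0.64 TPM in M0. These groups did not overlap, and the log2 change was 1.23 ± 0.219 (SE; limma, adjusted p = 0.00104). IFN-γ also exceeded IL-10 in non-phagocytic macrophages, by 1.06 ± 0.218 (log2, SE; limma, adjusted p = 0.00242). In both comparisons Pdcd1lg2 passed the filter of 1 TPM in 4 libraries only through IFN-γ. All 4 IFN-γ non-phagocytic libraries reached 1 TPM, against 0 in M0 and 0 in IL-10 non-phagocytic macrophages. It was thus tested because it was high under IFN-γ, and the calls add no support to the levels. Within IFN-γ, levels were 0.92 to 1.5 TPM after Tconv uptake and 0.44, 0, 2.23 and 0.54 TPM after Treg uptake. The library at 0 had the lowest depth of all 28, and the Treg-phagocytic against non-phagocytic change of -0.97 (95% interval -1.88 to -0.07) was not called (limma, adjusted p = 0.177), although the model of all 28 libraries called it (adjusted p = 0.00695). Over the 7 groups, neighbours in the order of means all overlapped.

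Cd80 and Cd86 encode the ligands that CD28 and CTLA-4 share. Cd86 was highest in M0, at 26.2, 24.1, 26.1 and 23.8 TPM, and no library of the other 6 groups exceeded 20.1 TPM. Their means ran from 12.8 ± 2.71 TPM (SD, n = 4) in IFN-γ Treg-phagocytic to 15.1 ± 0.983 TPM (SD, n = 4) in IL-10 Tconv-phagocytic macrophages, and their ranges overlapped. Against M0 the log2 change of Cd86 was -0.78 ± 0.0765 under IL-10 (SE; limma, adjusted p = 3.92e-05) and -0.44 ± 0.146 under IFN-γ (SE; limma, adjusted p = 0.0267). The IFN-γ call was lost without M0 library 1 or 3 or without IFN-γ non-phagocytic library 1, 3 or 4, with adjusted p of 0.0544 to 0.0661. The groups overlapped on scaled TPM but not in deposited TPM, and without scaling the log2 change was -0.74. No change of Cd86 with uptake was called under either cytokine by limma. The Cd86 gene lies at chr16:36603869-36666081 (mm10, minus strand).

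Cd80 (chr16:38455561-38496335, mm10, plus strand) was lower than Cd86 in TPM in every group. It was 3.12 to 4.31 TPM in M0, and 1.73 to 2.27 TPM in IL-10 non-phagocytic macrophages, with no overlap. The log2 change was -0.66 ± 0.107 (SE; limma, adjusted p = 0.00119), although the model of all 28 libraries did not call it (adjusted p = 0.0969). Under IFN-γ the spread was wide: 4, 7.14, 4.48 and 2.07 TPM in non-phagocytic, 1.79 to 4.23 TPM in Tconv-phagocytic and 2 to 7.01 TPM in Treg-phagocytic macrophages. These ranges overlapped that of M0, and the change of non-phagocytic macrophages against M0 was 0.37 (limma, adjusted p = 0.27). It was 0.62 and called without IFN-γ non-phagocytic library 4 (adjusted p = 0.0267), and 0.12 without scaling (adjusted p = 0.703). IFN-γ exceeded IL-10 by 1.03 ± 0.27 in non-phagocytic macrophages (log2, SE; limma, adjusted p = 0.00959).

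For Cd80 in phagocytic macrophages, the calls between IFN-γ and IL-10 were fragile. The log2 change was 0.87 in Treg-phagocytic macrophages (limma, adjusted p = 0.0363), and it was no longer called without IFN-γ library Ax647-1, Ax647-2 or BV421-2 or without any 1 of the 4 IL-10 libraries (adjusted p 0.0553 to 0.0881), nor without scaling (adjusted p = 0.0797). In Tconv-phagocytic macrophages it was 0.58 (limma, adjusted p = 0.0351), and it was lost without IFN-γ library BV421-1 or Ax647-2 or without any 1 of the 4 IL-10 libraries (adjusted p 0.0666 to 0.0849), and without scaling (adjusted p = 0.0857). No change of Cd80 with uptake was called by limma within either cytokine.

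Icosl encodes the ligand of ICOS, a CD28-family receptor of activated T cells (chr10:78069302-78083913, mm10, plus strand). It was 3.79, 3.17, 2.62 and 3.42 TPM in M0 and 9.06, 4.8, 7.67 and 7.23 TPM in IFN-γ non-phagocytic macrophages. The groups did not overlap, and the log2 change was 1.18 ± 0.186 (SE; limma, adjusted p = 0.00049). IL-10 non-phagocytic macrophages held 3.89 to 5.21 TPM, 0.36 higher than M0 on the log2 scale (limma, adjusted p = 0.0356). This call was lost without M0 library 2, 3 or 4 or IL-10 library 1, 2 or 4, at adjusted p of 0.0522 to 0.0874. IFN-γ exceeded IL-10 by 0.82 ± 0.182 in non-phagocytic and 0.78 ± 0.148 in Treg-phagocytic macrophages (log2, SE; limma, adjusted p = 0.0038 and 0.00229). In Tconv-phagocytic macrophages the difference was 0.36 (limma, adjusted p = 0.0516), and without IFN-γ library Ax647-2 it was 0.46 (adjusted p = 0.0135). Without scaling it was 0.19 (adjusted p = 0.26), and the differences in non-phagocytic and Treg-phagocytic macrophages were 0.55 and 0.51, both still called (adjusted p = 0.0246 and 0.0166). No difference of Icosl with uptake was called by limma.

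Vsir encodes VISTA and had the highest TPM of the 10 genes in every library (chr10:60346851-60372684, mm10, plus strand). In M0 it was 334, 328, 337 and 334 TPM. Under IL-10 it was 492, 481, 489.9 and 469 TPM in non-phagocytic, 469, 451, 441 and 465 TPM in Tconv-phagocytic and 418, 419, 419 and 407 TPM in Treg-phagocytic macrophages. All 12 IL-10 libraries exceeded M0, and the Treg-phagocytic libraries were below all other IL-10 libraries. Under IFN-γ it was 219, 235, 239 and 226 TPM in non-phagocytic, 248, 234, 230.2 and 209.7 TPM in Tconv-phagocytic and 244, 243, 234 and 266 TPM in Treg-phagocytic macrophages. In deposited TPM all 12 IFN-γ libraries were below M0, and their groups overlapped each other. On scaled TPM, IFN-γ Treg library BV421-2 lay above M0, as its log2 scaling factor was -0.268 beside a mean of 0.153 in M0. In the order of mean deposited TPM (IL-10 non-phagocytic, IL-10 Tconv, IL-10 Treg, M0, IFN-γ Treg, IFN-γ Tconv, IFN-γ non-phagocytic), the first pair and the last 3 groups overlapped with their neighbours.

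In deposited TPM, Vsir in non-phagocytic macrophages was 1.45 times as high as in M0 under IL-10 and 0.691 times as high under IFN-γ. On scaled TPM the log2 changes were 0.52 ± 0.0246 and -0.22 ± 0.0355 (SE; limma, adjusted p = 2.22e-07 and 0.000515). Without scaling, the IFN-γ change was -0.53. IFN-γ was below IL-10 by -0.74 ± 0.0355 in non-phagocytic, -0.78 ± 0.0565 in Tconv-phagocytic and -0.44 ± 0.0518 in Treg-phagocytic macrophages (log2, SE; limma, adjusted p = 1.7e-07, 2.74e-06 and 0.000129). In Treg-phagocytic macrophages this was -0.75 without scaling. Vsir was the only 1 of the 10 genes that was called lower under IFN-γ than under IL-10 in each of these 3 comparisons.

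With Treg uptake, Vsir fell under IL-10. The log2 change against non-phagocytic macrophages was -0.13 ± 0.0247 (SE; limma, adjusted p = 0.00743), or -0.22 without scaling, and the model of all 28 libraries did not call it (adjusted p = 0.125). Against Tconv-phagocytic macrophages it was -0.13 ± 0.027 (SE; limma, adjusted p = 0.0444). That call was lost in 18 of 26 alternatives, with adjusted p up to 0.672. It was kept without Tconv library Ax647-1 and lost without each of the other 7 libraries (adjusted p 0.068 to 0.163). Under IFN-γ the changes were 0.22 (95% interval 0.05 to 0.38) against Tconv-phagocytic and 0.17 (0.03 to 0.31) against non-phagocytic macrophages, neither called by limma (adjusted p = 0.0838 and 0.118). Both were 0.10 without scaling (adjusted p = 0.404 and 0.348), while the model of all 28 libraries called both (adjusted p = 0.000747 and 0.00662). The first was also called with variance weights (adjusted p = 0.0154) and without Tconv library BV421-1 (adjusted p = 0.0491). The difference between the cytokines was called in both tests, 0.35 ± 0.0782 for Treg against Tconv and 0.30 ± 0.0622 for Treg against non-phagocytic (log2, SE; limma, adjusted p = 0.00677 and 0.0046). Other cell markers moved beside Vsir under IL-10: 8 stromal markers summed to 67 to 73.6 TPM in non-phagocytic, 127 to 131 TPM in Tconv-phagocytic and 23 to 26.6 TPM in Treg-phagocytic libraries. The 18 T cell markers summed to 187 to 203, 219 to 271 and 316 to 351 TPM there, all 18 higher in the Treg-phagocytic than in the non-phagocytic libraries. Their part in the Vsir result was not tested.

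**Figure D2:**
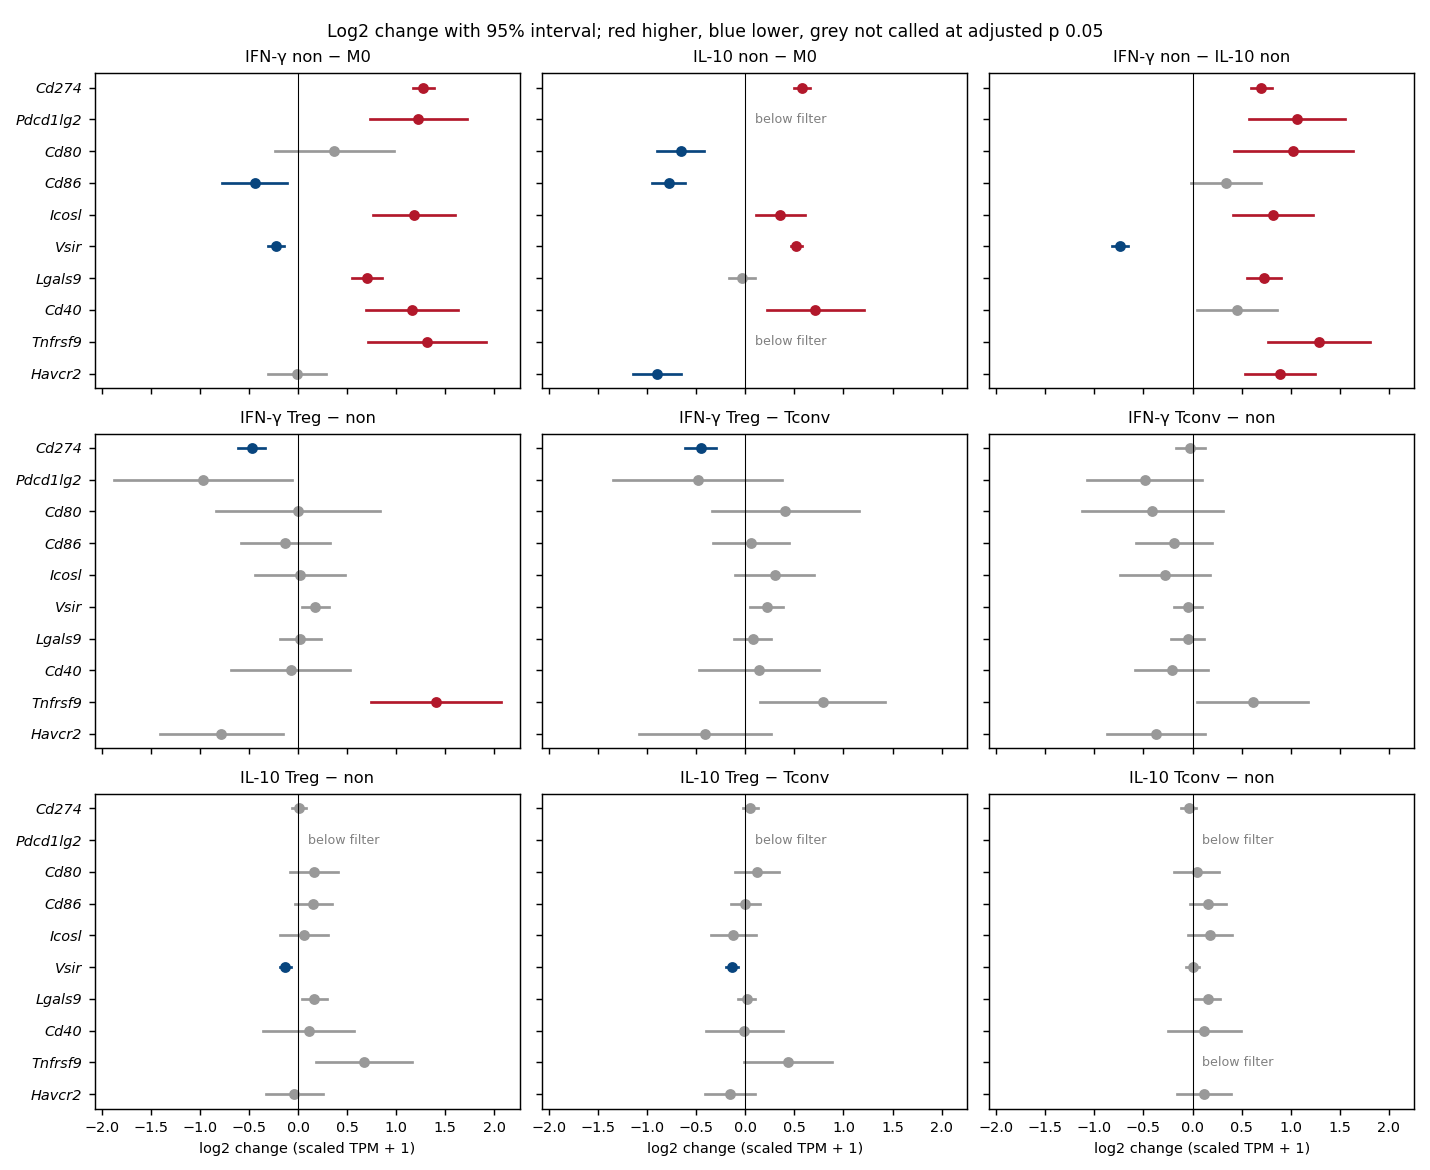
Log2 change of each gene on the scale of scaled TPM + 1 (points) with its 95% interval (lines) in 9 comparisons of 4 against 4 libraries; red and blue are called higher and lower by limma at an adjusted p under 0.05, grey is not called, and genes below the filter are named as such. The cytokine comparisons in the top row hold most of the calls, and in the uptake comparisons the calls are Cd274, Tnfrsf9 and Vsir.

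The relation of Vsir to Cd274 within a library was computed after the values of both had been seen and is given as a description, without a test. The ratio of Vsir to Cd274 TPM was 3.67 to 3.94 in M0 and 3.23 to 3.92 over the 12 IL-10 libraries. It was 1.25 to 1.48 in IFN-γ non-phagocytic, 1.19 to 1.58 in Tconv-phagocytic and 1.98 to 2.19 in Treg-phagocytic macrophages. The 4 IFN-γ Treg-phagocytic libraries thus stood between the other IFN-γ libraries and the M0 and IL-10 libraries, without overlap. Under IL-10 the Treg-phagocytic mean was 3.32 ± 0.0855 (SD, n = 4), beside 3.77 ± 0.139 in Tconv-phagocytic and 3.67 ± 0.15 in non-phagocytic macrophages. A ratio within a library shows that the 2 transcripts changed unequally, and is not affected by scaling.

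**Figure D3:**
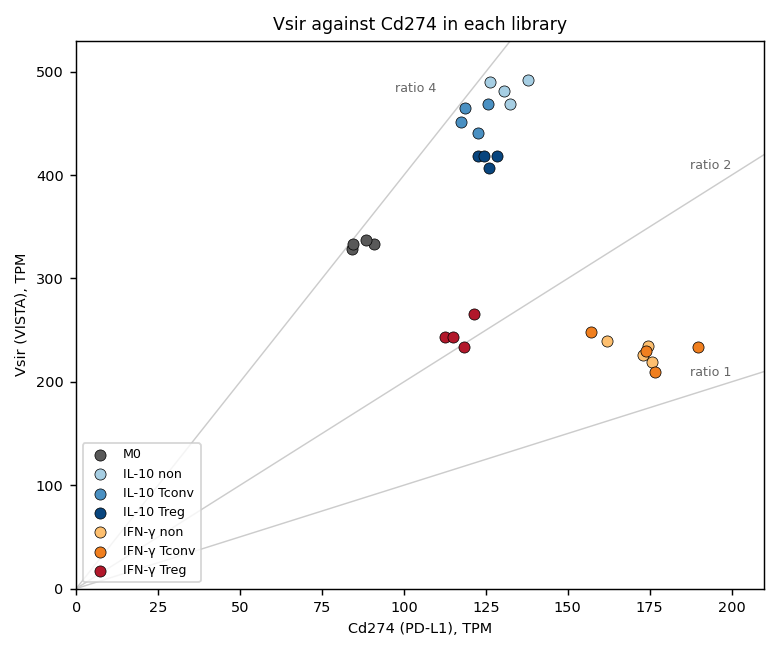
Vsir TPM against Cd274 TPM in each of the 28 libraries, coloured by group, with grey lines at ratios of 1, 2 and 4. The IFN-γ Treg points lie near a ratio of 2, apart from the other IFN-γ points at 1.19 to 1.58.

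Lgals9 (chr11:78962974-78984946, mm10, minus strand) encodes galectin-9 and was higher under IFN-γ than elsewhere. It was 63.9, 57.4, 58.4 and 56.6 TPM in M0 and 52.4 to 64.5 TPM over the 12 IL-10 libraries. Under IFN-γ it was 76.7, 74.3, 87.9 and 73.1 TPM in non-phagocytic, 74.7 to 79.9 TPM in Tconv-phagocytic and 66.2 to 86.2 TPM in Treg-phagocytic macrophages. All 12 IFN-γ libraries exceeded all 16 others. Against M0 the log2 change under IFN-γ was 0.70 ± 0.067 (SE; limma, adjusted p = 1.97e-05), and under IL-10 it was -0.03 (95% interval -0.17 to 0.10; limma, adjusted p = 0.728). IFN-γ exceeded IL-10 by 0.73, 0.53 and 0.59 on the log2 scale in non-phagocytic, Tconv-phagocytic and Treg-phagocytic macrophages (limma, adjusted p = 3.41e-05, 1.69e-05 and 0.000214). Without scaling these were 0.41, 0.33 and 0.28, each still called, and the change against M0 was 0.39. No change of Lgals9 with uptake was called by limma in the fits of 2 groups. With variance weights over all 28 libraries, limma called it higher than in non-phagocytic macrophages under IL-10 after Treg uptake (0.17, adjusted p = 0.0178) and after Tconv uptake (0.15, adjusted p = 0.0263). In both, the groups did not overlap on scaled TPM but did in deposited TPM, and without scaling the changes were 0.08 and 0.07.

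Havcr2 (chr11:46454935-46481255, mm10, plus strand) encodes TIM-3, a receptor of galectin-9, and ran differently from Lgals9. It was 4.05, 3.58, 4.06 and 3.98 TPM in M0, 2.74, 2.89, 3.3 and 3.58 TPM in IFN-γ non-phagocytic and 1.14 to 1.88 TPM in IL-10 non-phagocytic macrophages. IL-10 lay below M0 with no overlap, and the log2 change was -0.90 ± 0.11 (SE; limma, adjusted p = 0.000173). IFN-γ exceeded IL-10 by 0.89 ± 0.158 (log2, SE; limma, adjusted p = 0.00105), and against M0 its change was -0.01 (95% interval -0.31 to 0.28). That value depends on scaling: in deposited TPM the mean of Havcr2 under IFN-γ was 0.798 times that in M0. After Treg uptake under IFN-γ it was 2.46, 0.69, 0.99 and 1.71 TPM, below all 4 non-phagocytic libraries. The log2 change of -0.78 was not called (limma, adjusted p = 0.119). The models of all 28 libraries called it, with a shared variance (adjusted p = 0.00196) or a weight per group (adjusted p = 0.036). At this depth, 1 TPM of a 2000 nt transcript is only a few reads in these libraries.

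Cd40 (chr2:165055627-165072948, mm10, plus strand) encodes the receptor through which CD4 T cells license antigen-presenting cells. It was 9.09, 4.53, 4.24 and 5.72 TPM in M0, and 11.4, 13.3, 9.25 and 11.8 TPM in IFN-γ non-phagocytic macrophages. The IFN-γ libraries were all above M0, and the log2 change was 1.16 ± 0.208 (SE; limma, adjusted p = 0.00107). In IL-10 non-phagocytic macrophages it was 8.01 to 14.2 TPM, overlapping M0 through M0 library 1. The log2 change of 0.71 (limma, adjusted p = 0.035) was lost without M0 library 2, 3 or 4 or IL-10 library 2 or 3 (adjusted p 0.0667 to 0.0905). IFN-γ and IL-10 did not differ by a called change in non-phagocytic macrophages (0.45; limma, adjusted p = 0.0594), and this was 0.15 without scaling (adjusted p = 0.486). A call was made without IFN-γ library 3 (adjusted p = 0.0334) or IL-10 library 2 (adjusted p = 0.0136). The means of the 6 cytokine groups lay between 10.1 and 11.4 TPM with overlapping ranges, and no change with uptake was called by limma.

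Tnfrsf9 (chr4:150914562-150946102, mm10, plus strand) encodes 4-1BB, a costimulatory receptor best known on activated T cells and also present on Treg cells. It had the widest span of group means of the 10 genes, 2.71 on the log2 scale. It was 1.67, 0.19, 0.73 and 0.69 TPM in M0 and 0.48, 1.4, 0.63 and 0.73 TPM in IL-10 non-phagocytic macrophages. Under IFN-γ it was 2.5, 2.95, 4.31 and 1.92 TPM in non-phagocytic, 3.99, 3.63, 6.6 and 6.18 TPM in Tconv-phagocytic and 11.8, 12.3, 5.53 and 6.38 TPM in Treg-phagocytic macrophages. All Treg-phagocytic libraries exceeded all non-phagocytic libraries under IFN-γ, while the Tconv-phagocytic range overlapped both. Under IL-10 it was 0.76 to 1.35 TPM after Tconv uptake and 2.36, 2.29, 1.99 and 0.85 TPM after Treg uptake.

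In IFN-γ Treg-phagocytic macrophages the mean deposited TPM of Tnfrsf9 was 3.08 times that in non-phagocytic macrophages. On scaled TPM + 1 the log2 change was 1.4 ± 0.296 (SE; limma, adjusted p = 0.0171). The call was lost without non-phagocytic library 4 (1.27, adjusted p = 0.0522). Against Tconv-phagocytic macrophages the ratio was 1.76 and the log2 change 0.79 (limma, adjusted p = 0.0978), not called, although fits with the titles' dye as a covariate or with all 28 libraries called it (adjusted p = 0.0158 and 0.0232). The order of the 2 uptake groups depended on how the dye was read. By the titles, Treg- over Tconv-phagocytic means were 5.96 over 3.81 TPM for BV421 and 12 over 6.39 TPM for Ax647. By the library names they were 12 over 3.81 TPM for BV421 and 5.96 over 6.39 TPM for Ax647, where the Treg-phagocytic mean was the lower. Under IL-10 the change against non-phagocytic macrophages was 0.67 (limma, adjusted p = 0.0768), called without Treg-phagocytic library BV421-2 (0.86, adjusted p = 0.018) and with variance weights (adjusted p = 0.0247).

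Between the cytokines, Tnfrsf9 was higher under IFN-γ by 1.29 ± 0.231 in non-phagocytic, 1.67 ± 0.2 in Tconv-phagocytic and 2.03 ± 0.293 in Treg-phagocytic macrophages (log2, SE; limma, adjusted p = 0.00108, 7.88e-05 and 0.000454). Against M0, IFN-γ non-phagocytic macrophages were higher by 1.31 ± 0.267 (log2, SE; limma, adjusted p = 0.00228). In the non-phagocytic comparisons Tnfrsf9 passed the filter through the IFN-γ libraries, as only 1 library of M0 and 1 of IL-10 reached 1 TPM. T cell transcripts mostly moved with these differences of Tnfrsf9 between cytokines and from M0. All 18 T cell markers were called higher under IFN-γ than IL-10 in each of the 3 comparisons, against 28.6%, 29.4% and 21.7% of all genes. Their medians were 2.60, 2.35 and 2.00 on the log2 scale, and none of the 18 was at 0 throughout a group. Against M0, 17 were called higher in IFN-γ non-phagocytic macrophages and 1 lower, where 29.3% and 27.6% of all genes were. Foxp3, the defining Treg factor, was 10.12 to 19.97 TPM under IFN-γ, 1.85 to 6.34 TPM under IL-10 and 1.01 to 2.39 TPM in M0. Among the IFN-γ groups the T cell markers did not separate: they summed to 651 to 1060 TPM in non-phagocytic, 781 to 970 TPM in Tconv-phagocytic and 763 to 1187 TPM in Treg-phagocytic libraries. Of the 18, 1 was called higher in Treg-phagocytic than in non-phagocytic macrophages (Il7r, 0.32), and Foxp3 was 10.45 to 14.35 against 10.95 to 19.97 TPM. The part of T cell RNA in the Tnfrsf9 level was not tested.

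**Figure D4:**
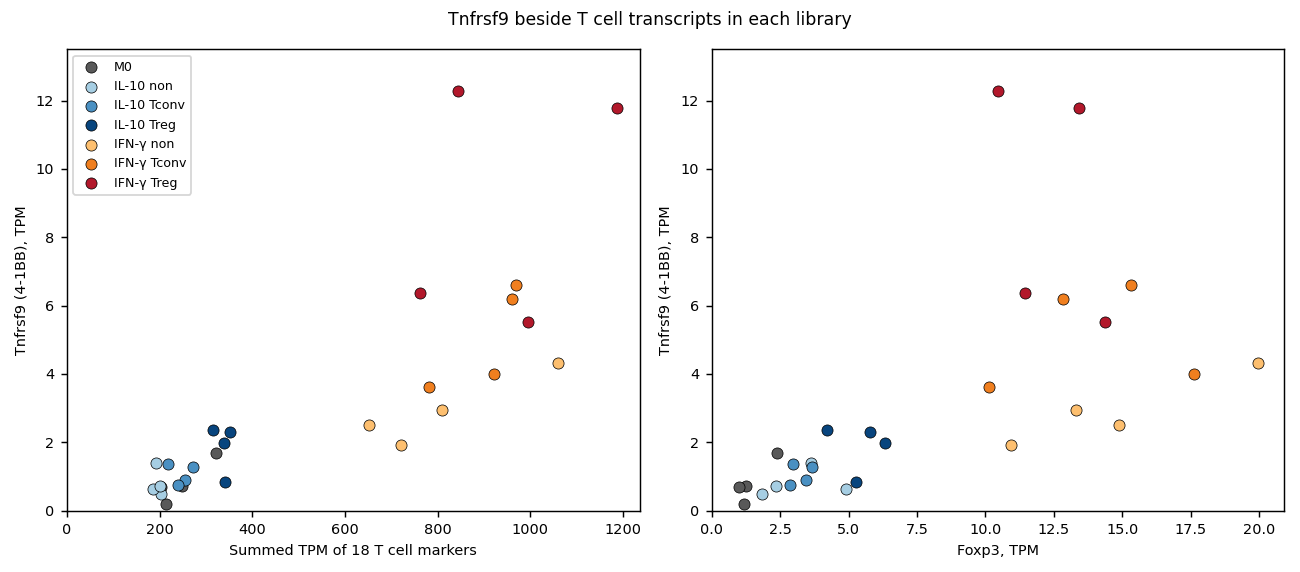
Tnfrsf9 TPM in each of the 28 libraries against the summed TPM of 18 T cell markers (left) and against Foxp3 TPM (right), coloured by group. The IFN-γ libraries lie to the right of all others in both panels, and among them Tnfrsf9 runs from 1.92 to 12.3 TPM at overlapping levels of T cell transcripts.

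Genes around these ligands were read as lists. Among 15 genes that act on PD-L1 expression or stability, 6 were called lower and 0 higher in IFN-γ Treg-phagocytic than in Tconv-phagocytic macrophages (median log2 change -0.12, beside 0.05 over all genes), and 6 lower and 0 higher against non-phagocytic macrophages, where 6.08% of all genes were called lower. Stat2 and Irf1, transcription factors of the interferon response, changed by -1.58 and -1.09 on the log2 scale against Tconv-phagocytic macrophages (limma, adjusted p = 0.000271 and 0.000977), in the comparison where 8.36% of all genes were called lower. Irf1 was 88.5 to 119 TPM in Treg-phagocytic, 199.5 to 295 TPM in Tconv-phagocytic and 189.1 to 213 TPM in non-phagocytic macrophages under IFN-γ, with no overlap of the first with the others. The list was chosen with earlier results of these data known, so its counts are a description. A link of these genes to the Cd274 level was not tested. Under IL-10, 0 of the 15 were called between Treg- and Tconv-phagocytic macrophages by limma, a comparison in which 1.73% of all genes were called, so the count says little about the list.

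Of 19 TRAF and NF-κB genes, which act downstream of CD40 and 4-1BB, 3 were called lower and 0 higher in IFN-γ Treg- than in Tconv-phagocytic macrophages, where 8.36% of all genes were called lower and 6.07% higher, so the count is close to the share of all genes called. These were Chuk, a kinase subunit (-1.01), Rel, an NF-κB subunit (-0.84) and Nfkbia, an NF-κB inhibitor (-0.46), each a log2 change by limma. Between IFN-γ non-phagocytic macrophages and M0, 12 of the 19 were called higher and 3 lower, against 29.3% and 27.6% of all genes, with Nfkbia at 1.59 and Traf5 at 1.28. The median of the list was 0.38 there, beside -0.01 over all genes.

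A list of 32 other ligands and receptors of antigen-presenting cells had 22 members above the filter. In IFN-γ Treg- against Tconv-phagocytic macrophages 3 were called higher and 4 lower, against 6.07% and 8.36% of all genes. Tnfrsf14, which encodes HVEM, a partner of BTLA, was 36 to 51.5 TPM in Treg-phagocytic, 98.3 to 110.2 TPM in Tconv-phagocytic and 67 to 90.3 TPM in non-phagocytic macrophages. Its log2 change was -1.19 ± 0.105 against Tconv-phagocytic (SE; limma, adjusted p = 0.00026) and -0.82 ± 0.125 against non-phagocytic macrophages (SE; limma, adjusted p = 0.00337). Pirb, an inhibitory receptor of a multigene family whose reads may be shared with its relatives, was 150.0 to 160.0 TPM in Treg- and 203 to 241 TPM in Tconv-phagocytic macrophages. Under IL-10 versus M0, Tnfsf14, the ligand LIGHT, rose by 3.40 and Tnfsf9, the ligand of 4-1BB, rose by 1.41 on the log2 scale by limma. Tnfsf9 was 11.1 to 18.2 TPM over the IL-10 libraries and 3.56 to 11.7 TPM over the IFN-γ libraries, the reverse of the order of its receptor, Tnfrsf9. Among 15 T cell counter-receptors, all 13 tested were called higher under IFN-γ than IL-10 in non-phagocytic macrophages, against 28.6% of all genes. Between IL-10 non-phagocytic macrophages and M0 only 5 of the 15 passed the filter. Many of the 13 were thus tested only because they were high under IFN-γ, which largely set their direction, and the count is no support. They moved with the T cell markers above, with which the list shares Cd2.

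Genes whose levels followed a member most closely were found by the root mean square difference of centred log2 values over 28 libraries, among 8724 genes with a mean of at least 5 TPM. They are named for each of the 6 members whose group means spanned at least 1 on the log2 scale. For Cd274 they were H2-DMb1 (0.102), Ccnl2 (0.114) and H2-T22 (0.124), 2 of which are genes of the major histocompatibility complex. For Tnfrsf9 they were Ets1 (0.42), Bzw2 (0.425) and Ccr7 (0.448), at a larger difference. Icosl was nearest to Fcer1g (0.184), Scand1 (0.188) and Cox6b1 (0.193). Cd80 was nearest to Tpx2 (0.301), Ccdc90b (0.308) and Selenom (0.312). Pdcd1lg2 was nearest to Rsbn1l (0.311), Tdp2 (0.312) and Hps5 (0.322), and Cd40 to Dbndd2 (0.302), Smagp (0.307) and Ifi30 (0.309). The libraries share depth differences and cytokine, so the likeness is a description.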

How the data were processed

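RNA was extracted with RNAiso PLUS, cleaned with NucleoSpin, and poly(A) RNA was sequenced after preparation with NEBNext Ultra II Directional, per the labels' protocols. STAR, RSEM and the mm10 build are named without versions or roles in the submitters' processing notes, and the annotation is not given in the sources used here. The deposited values are TPM per Ensembl gene ID, per the file headers; of 55487 IDs, 55141 were matched to a symbol. Whether counting used strand is not given in the sources used here, so reads of genes that overlap on opposite strands cannot be told apart.

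No read counts were used. Relative depth was read from 14568 genes with 1 annotated transcript (GENCODE vM21), where 88.7% to 92.0% of low values lay within 0.15 reads of a whole number (30% by chance). Total counts are unknown. Of the library pairs, 0 had identical values.

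Each TPM value was divided by a scaling factor per library, a trimmed mean of log2 ratios over 9723 genes at 1 TPM or more in every library (30% of ratios and 5% of means trimmed from each end). Differences were tested with limma 3.58.1 (R 4.3.3) on log2(scaled TPM + 1), with a mean-variance trend and Benjamini-Hochberg adjustment. Each fit held only the groups compared, because spread differed between groups (array weights 0.33 to 0.457 for IFN-γ, 1.64 to 2.2 for the others), and genes at 1 TPM or more in 4 or more libraries of the fit. A fit of IFN-γ against IL-10 or M0 still shared a variance per gene between groups of unlike spread. Its p-values are subject to this limit. The test was checked on simulated data. Genes named were all 10 members, at most 4 called genes per list and comparison with the largest changes, and the 3 genes nearest to each wide-ranging member. Which listed genes are shown with levels was chosen after their values were seen. The members, lists and tests were chosen with earlier results of these data known. Alternatives changed the libraries in the fit, variance weights, scaling, pseudocount (0.1 and 5), low-value filter, dye, replicate block and a minimum log2 change of 1, and left out each library. Fits within a dye as read from the library names were added after the data were seen. Of the listed genes, 1 is not reported here by name.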

Additional observations from a re-analysis of the deposited data

Results flagged for a closer look

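The effect of Treg uptake on Cd274 differed between the cytokines by -0.51 on the log2 scale when set against Tconv uptake and by -0.49 when set against no uptake, being lower under IFN-γ. For Vsir the same tests gave differences of 0.35 and 0.30, with the change higher under IFN-γ. These 4 differences were called by limma and share the Treg-phagocytic libraries.

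Single libraries stood apart from their group in 3 of the 70 gene and group combinations checked, a rule that marks about 1 in 20 by chance. Pdcd1lg2 was 1.29 TPM in IL-10 Tconv-phagocytic library BV421-1, above 0.7 to 0.74 TPM in the other 3. Vsir was 406.62 TPM in IL-10 Treg-phagocytic library BV421-2, below the 418 to 419 TPM of the rest. Havcr2 was 3.58 TPM in M0 library 2, below 3.98 to 4.06 TPM in the other 3.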

How the results depend on the processing

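Counts of called members were recomputed under each alternative. Requiring a log2 change of at least 1 left 0 for IFN-γ Treg against Tconv, 1 for IFN-γ Treg against non-phagocytic, 0 for both IL-10 Treg comparisons, 3, 5 and 0 for IFN-γ against IL-10, IFN-γ against M0 and IL-10 against M0 (non-phagocytic), 1 each for IFN-γ against IL-10 after Treg and after Tconv uptake, and 0 for both differences between cytokines. One model of all 28 libraries gave 3 and 5 for the 2 IFN-γ Treg comparisons, 0 for both IL-10 ones and 4 for IL-10 against M0. Variance weights per group gave 2 for IFN-γ Treg against Tconv, 3 for IL-10 Treg against non-phagocytic and 1 for IL-10 Tconv against non-phagocytic. A filter of 5 TPM gave 4, 5 and 4 for IFN-γ against IL-10, IFN-γ against M0 and IL-10 against M0, since fewer members were tested. No filter gave 0 for IL-10 Treg against Tconv. Within 1 dye, by either reading, 0 members were called for Treg against Tconv under IFN-γ or IL-10, and 3 for IFN-γ against IL-10 after Treg uptake. The dye in the titles as covariate gave 2 for IFN-γ Treg against Tconv and 0 for the IL-10 comparison, where the dye in the library names also gave 0. Except where the filter sets how many are tested, the cause of these shifts was not tested. Leaving out 1 library gave 1 to 2 calls for IFN-γ Treg against Tconv, 1 to 2 against non-phagocytic, 0 to 1 for IL-10 Treg against Tconv and 1 to 2 against non-phagocytic.

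Same-numbered libraries were not treated as pairs, since correlations of their deviations were -0.05 to 0.11. A replicate block by titles gave 2 calls for IFN-γ Treg against Tconv, 0 for IL-10 Treg against Tconv, 9, 8 and 6 for the non-phagocytic comparisons of IFN-γ with IL-10, IFN-γ with M0 and IL-10 with M0, and 5 and 4 for IFN-γ against IL-10 after Treg and Tconv uptake. A replicate block by library names gave 1 and 0 for Treg against Tconv under IFN-γ and IL-10. No paired analysis was possible for phagocytic against non-phagocytic libraries because their numbers do not correspond.

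Over all genes, the count called was 1729, 1124 and 0 for IFN-γ Treg against Tconv, Treg against non-phagocytic and Tconv against non-phagocytic, and 4400, 3830 and 116 in one model of all libraries. For the IL-10 comparisons in the same order it was 205, 1549 and 864, and 107, 639 and 253 in that model, or for the first 370 with variance weights, 135 with the 5 TPM filter, and 121 and 100 with the replicate block by titles and by library names. Within 1 dye, Treg against Tconv gave 0 to 157 calls under IFN-γ and 14 to 29 under IL-10. For IL-10 against M0 it was 3653, and 1797 in that model. Without scaling, the share of called genes that were higher fell from 42% to 16.8% for IFN-γ Treg against Tconv, from 35.7% to 17.1% against non-phagocytic, from 62% to 26.1% for IL-10 Treg against non-phagocytic, from 71.6% to 24.2% for IL-10 Tconv against non-phagocytic, from 52.4% to 28.6% for IFN-γ against IL-10, from 51.5% to 29.8% for IFN-γ against M0, and from 53.6% to 24.2% and 52.8% to 36.1% for IFN-γ against IL-10 after Treg and Tconv uptake. The direction of Cd274 in IFN-γ against IL-10 Treg-phagocytic macrophages reversed to -0.10 without scaling. Depth limits Pdcd1lg2, Havcr2, Cd80 and Tnfrsf9 under IFN-γ, where 1 TPM is a few reads.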
